A study of Mus musculus with 9 samples.

Results

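Dppa3, Padi6, Oas1d, Zp3, Gdf9, Nlrp14, Khdc3, Nobox, Ooep and Amhr2 are 10 genes of the oocyte and of the ovary whose signals were low in the Glis3 mutant pool at postnatal day 3 (PND3). They were chosen by name because their mutant over wild-type (WT) ratios were already known to be low, so those ratios are given below as a description and no test of them was made. The 10 genes are represented by 11 probes of the 41174 on the array, and by 10 of 20921 genes measured. The series compared mice homozygous for the Glis3zf mutation, which affects the zinc finger transcription factor Glis3, with WT mice, all of strain C57BL/6 and with RNA labelled as pancreas. The mutant pool held RNA of 2 mutant pups and the WT pool RNA of 2 WT pups, both at PND3. Both pools were hybridised together on 2 dye-swapped Agilent arrays, one labelled with mutant RNA in Cy3 and WT RNA in Cy5 (the Cy3-mutant array) and one labelled the other way round (the Cy5-mutant array). The arrays therefore repeat 1 pool per genotype and carry no replicate of pups, so no p-value is given. The sex of the pups is not given in the labels. The other 7 arrays of the series, 4 mutant and 3 WT samples at embryonic day 15.5 (E15.5), carry probe sets without gene names and were not used here.

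Oocytes of newborn mice are enclosed in primordial follicles and stock transcripts that the early embryo will use. Nobox and Figla are transcription factors of this stage, and among the genes that depend on them in mouse are those of the zona pellucida, the glycoprotein coat of the egg, and of the growth factor Gdf9. Padi6, Khdc3 and Ooep encode proteins of the subcortical maternal complex and the cytoplasmic lattices of the egg. Amhr2 differs from the other members, since this receptor is known from granulosa cells, Sertoli cells and the mesenchyme around the Müllerian duct and not from the oocyte.

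Probes are 60 bases long and were read from the scanner files. Zp3 is the only member with more than 1 probe, and its pair is shown because the probes overlap by 30 bases, in capitals here, so that they are not independent readings of the transcript. The probes of Padi6 and Amhr2 are shown as examples from an oocyte protein and from the receptor.
Zp3 A_51_P152973: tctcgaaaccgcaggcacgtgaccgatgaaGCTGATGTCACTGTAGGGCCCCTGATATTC
Zp3 A_52_P42762: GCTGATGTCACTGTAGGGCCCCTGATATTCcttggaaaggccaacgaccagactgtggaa
Padi6 A_51_P448094: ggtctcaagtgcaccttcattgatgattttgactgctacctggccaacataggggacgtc
Amhr2 A_51_P466221: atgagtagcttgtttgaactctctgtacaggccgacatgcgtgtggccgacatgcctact

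The 11 probes had GC contents between 35.0% and 55.0%, with a median of 41.7%.

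The label pancreas was checked against marker genes on these arrays. A probe is called clear of background where the scanner software marked its spot as well above the local background. Of 12 pancreas genes listed, 11 were on the array, and their median processed signals were 25.5 (mutant) and 25.2 (WT), with 7 clear of background on both arrays in each pool. Ins2, an insulin gene, had signals of 89.1 (mutant pool) and 88.9 (WT pool), and glucagon and pancreatic polypeptide probes were not clear of background on any array. The 10 kidney genes listed were all clear of background in both pools, with median signals of 15622 (mutant) and 13028 (WT), and Umod, which encodes uromodulin, reached 47875 and 50921 in the mutant and WT pools. The pancreas markers were thus dim or not clear of background and the kidney markers bright, and the values below are called those of the pools. In pooled RNA of this kind, fewer cells of a type and less RNA per cell cannot be told apart. Glis3 itself had signals of 3.88 and 3.39 in the mutant pool, not clear of background on either array, against 22.1 and 21.5 in the WT pool, clear of background on both. Its log2 ratio was -0.32 on the Cy3-mutant array and -0.31 on the other, and its probe was not placed relative to the mutation here.

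Processed signals are the scanner software's background-subtracted and dye-normalized intensities, in arbitrary units that differ in scale from probe to probe. Log2 ratios are of mutant over WT after a background correction that adds an offset of 50 to each channel, which draws the ratios of dim probes toward 0. Each ratio is given for the Cy3-mutant array first and for the Cy5-mutant array second. A gene was counted as apart when it was 2-fold or more lower, or higher, on both arrays. By that rule 33 of 20921 genes were lower in the mutant pool, 0.158% of those measured, and 7 were higher, 0.0335%. All 10 members were among the 33, as their choice required.

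Nobox, a homeobox transcription factor of the oocyte, had signals of 10.6 and 8.97 in the mutant pool, against 113 and 95.1 in the WT pool. Its probe was not clear of background on either array in the mutant pool and was clear of it in the WT pool on both. The log2 ratios were -1.22 and -1.15. Taking the mutant level as no lower than the dimmest probe clear of background in that channel, Nobox was at least 2.27-fold lower in the mutant pool.

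Zp3, a protein of the zona pellucida, had signals of 39.3 and 43.2 in the mutant pool, against 341 and 331 in the WT pool, on its brighter probe. Both pools were clear of background on both arrays. The log2 ratios were -1.95 and -1.88, a mean of -1.92, or 3.78-fold lower. On the second, overlapping probe the signals were 25.2 and 17.6 in the mutant pool, against 303 and 287 in the WT pool. That probe had log2 ratios of -1.87 and -2.04. In these ratios the means of the Zp3 probes differed by less than their arrays did. The scanner software's own log2 ratios averaged -3.03 on the brighter probe and -3.81 on the second. Those means were further apart than the arrays of either probe. With the offset lowered to 16 the means were -2.36 and -2.60, again further apart than the arrays of either probe.

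Gdf9, a growth factor that the oocyte secretes to the surrounding granulosa cells, had signals of 168 and 156 in the mutant pool, against 652 and 592 in the WT pool. The ratios on the arrays were close, -1.62 and -1.60, a mean 3.06-fold lower. Amhr2, the type II receptor of anti-Müllerian hormone, had signals of 92.6 and 88.5 in the mutant pool, against 355 and 339 in the WT pool. Its log2 ratios were -1.30 and -1.37, a mean 2.53-fold lower. Both genes were clear of background on both arrays in both pools, so these are measured ratios and not bounds.

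Among the egg-cytoplasm genes, Padi6, a member of the peptidylarginine deiminase family needed for the cytoplasmic lattices, had signals of 69.2 and 79.3 in the mutant pool, against 753 and 719 in the WT pool. Its log2 ratios of -2.45 and -2.46 differed by less than those of any member other than Oas1d, and their mean is 5.49-fold lower. Khdc3, also called Filia, had signals of 19.9 and 22.8 in the mutant pool, against 175 and 144 in the WT pool, with ratios of -1.35 and -1.25, a mean 2.47-fold lower. Ooep, a KH-domain partner of Khdc3 in the subcortical maternal complex, kept the largest share of its WT signal among the members. It had signals of 200 and 182 in the mutant pool, against 531 and 455 in the WT pool. Its log2 ratios were -1.17 and -1.04, a mean 2.16-fold lower, so on the Cy5-mutant array it lay just inside the 2-fold limit. The mutant and WT signals of these genes did not overlap. The genes were chosen for low ratios, and the share of all genes without overlap was not counted.

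Dppa3, also called Stella, a maternal factor that protects DNA methylation in the zygote, had signals of 14.0 and 14.7 in the mutant pool, against 516 and 470 in the WT pool. The mutant signal was 2.71% and 3.13% of the WT signal, and it was clear of background on 1 of the 2 arrays. Its log2 ratios were -2.76 and -2.73, and no fold is given because the mutant level was measured on 1 array. Oas1d, an oligoadenylate synthetase family member expressed in mouse oocytes, was likewise clear of background in the mutant pool on 1 of the 2 arrays. It had signals of 15.9 and 15.2 in the mutant pool, against 302 and 271 in the WT pool, and log2 ratios of -2.09 and -2.09. Nlrp14, an NLR family gene of germ cells, had signals of 7.91 and 3.28 in the mutant pool, against 174 and 153 in the WT pool. It was not clear of background on either array in the mutant pool, and was at least 3.03-fold lower there, with log2 ratios of -1.58 and -1.63. As for Nobox, that bound is the fold of the mean log2 ratio.

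**Figure D1:**
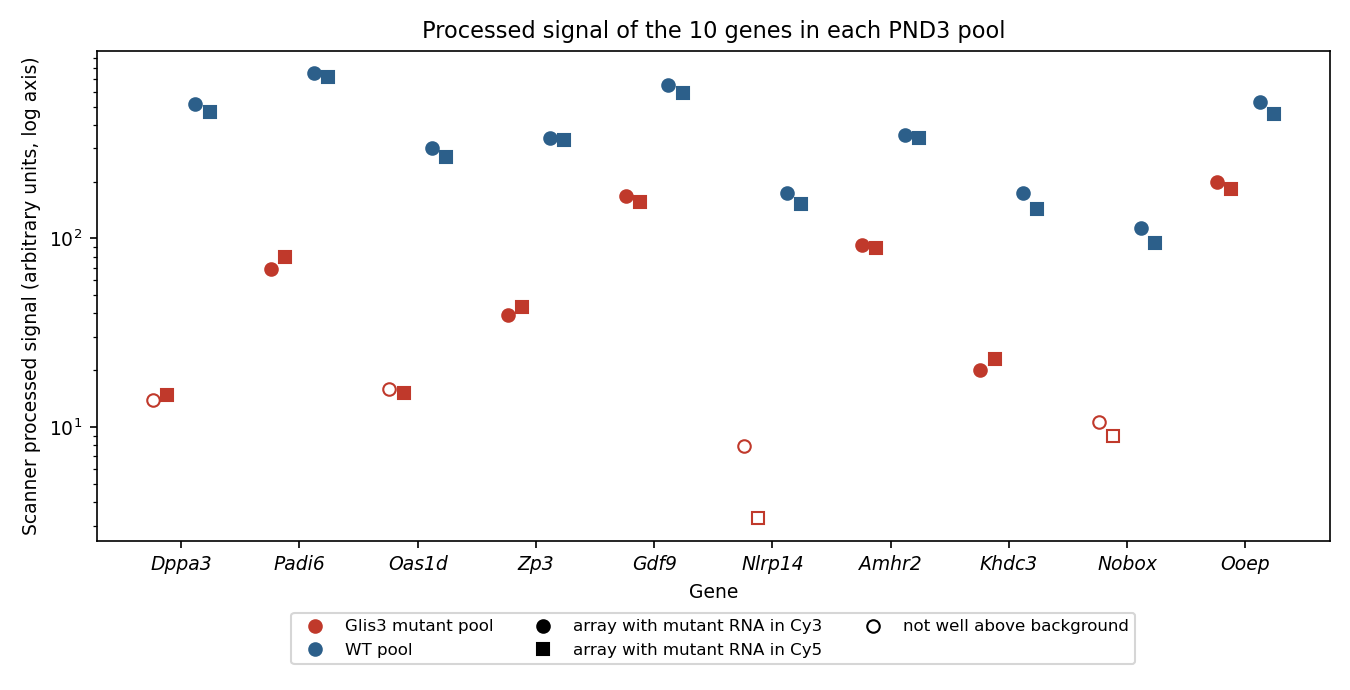
Scanner processed signal (arbitrary units, log axis) of each of the 10 genes, mutant pool in red left of WT pool in blue, with circles for the Cy3-mutant array, squares for the Cy5-mutant array and open symbols for spots not clear of background. In every gene, each chosen for a low ratio, both red points lie below both blue points. The open symbols are Dppa3 and Oas1d on 1 array and Nlrp14 and Nobox on both, all in the mutant pool.

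Across the 10 members the mean log2 ratio ranged from -2.74 for Dppa3 to -1.11 for Ooep, with a median of -1.61, against a median of -0.01 over all genes measured. The WT pool was clear of background on both arrays for all 10. The mutant pool was so for 6, on 1 array for 2, and on neither for 2. The array ratios of a member had SDs between 0.01 and 0.09 (SD, n = 2 arrays of the same pools), which measures the arrays and not pups. With an offset of 50, Dppa3 and Padi6 had the lowest mean ratios of all genes measured. With scanner ratios Padi6 stood behind Dppa3, Nlrp14, Oas1d and Nobox among the members, and ratios of genes dim in the mutant pool have no exact rank.

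**Figure D2:**
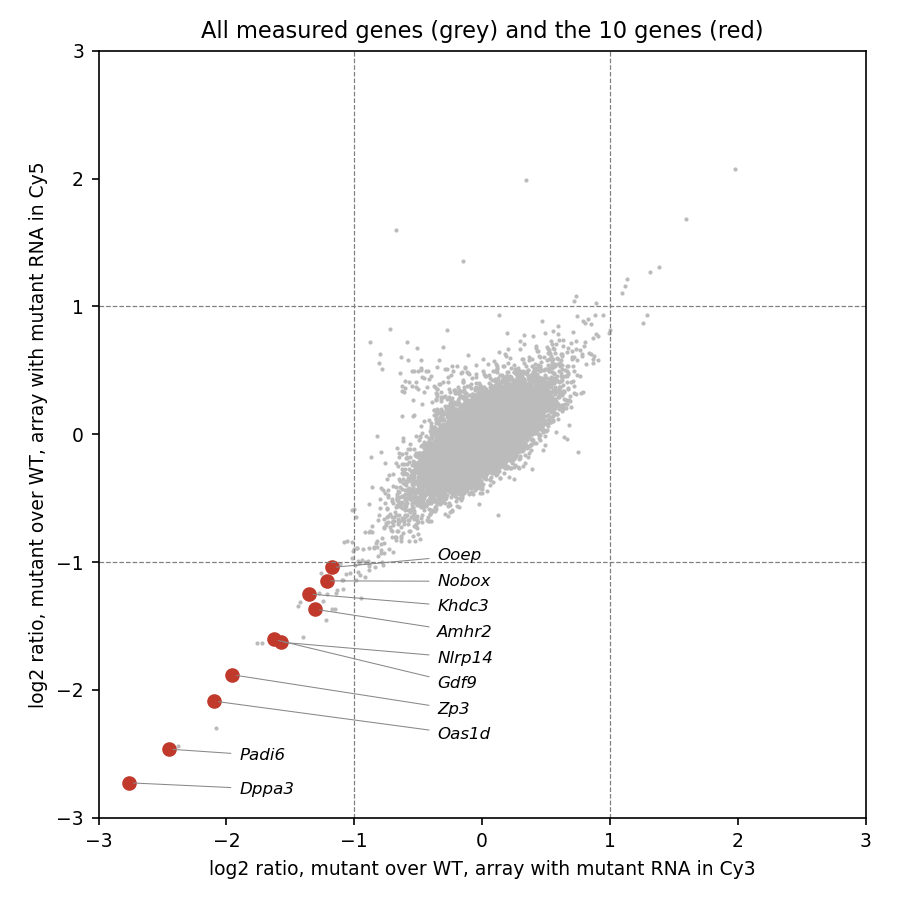
Log2 ratio of mutant over WT on the Cy3-mutant array (x axis) against that on the Cy5-mutant array (y axis), for 20921 genes in grey and the 10 genes in red, with dashed lines at 2-fold. The 10 genes lie along the diagonal from Dppa3 to Ooep, below both dashed lines.

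The size of the ratios depended on how background was treated, and the order of the members with it. For the 6 members with both pools clear of background throughout, the scanner software's own log2 ratios averaged -3.31 for Padi6, -3.03 for Zp3, -2.89 for Khdc3, -1.94 for both Gdf9 and Amhr2, and -1.37 for Ooep. These correspond to folds between 2.58 for Ooep and 9.93 for Padi6. With the offset lowered from 50 to 16 the same genes stood at -2.86, -2.36, -1.79, -1.79, -1.59 and -1.24, from Padi6, Zp3, Khdc3 and Gdf9 to Amhr2 and Ooep. Khdc3, dim in the mutant pool, moved more between settings than Gdf9, whose signals were well clear of background in both pools. Ooep had the smallest difference of the 10 under each of the 3 ways of processing. Dppa3 had the lowest 2-array mean under each, although its mutant level was clear of background on only 1 array. With scanner ratios Nlrp14 was lower than Dppa3 on the Cy5-mutant array, so their order is not settled.

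**Figure D3:**
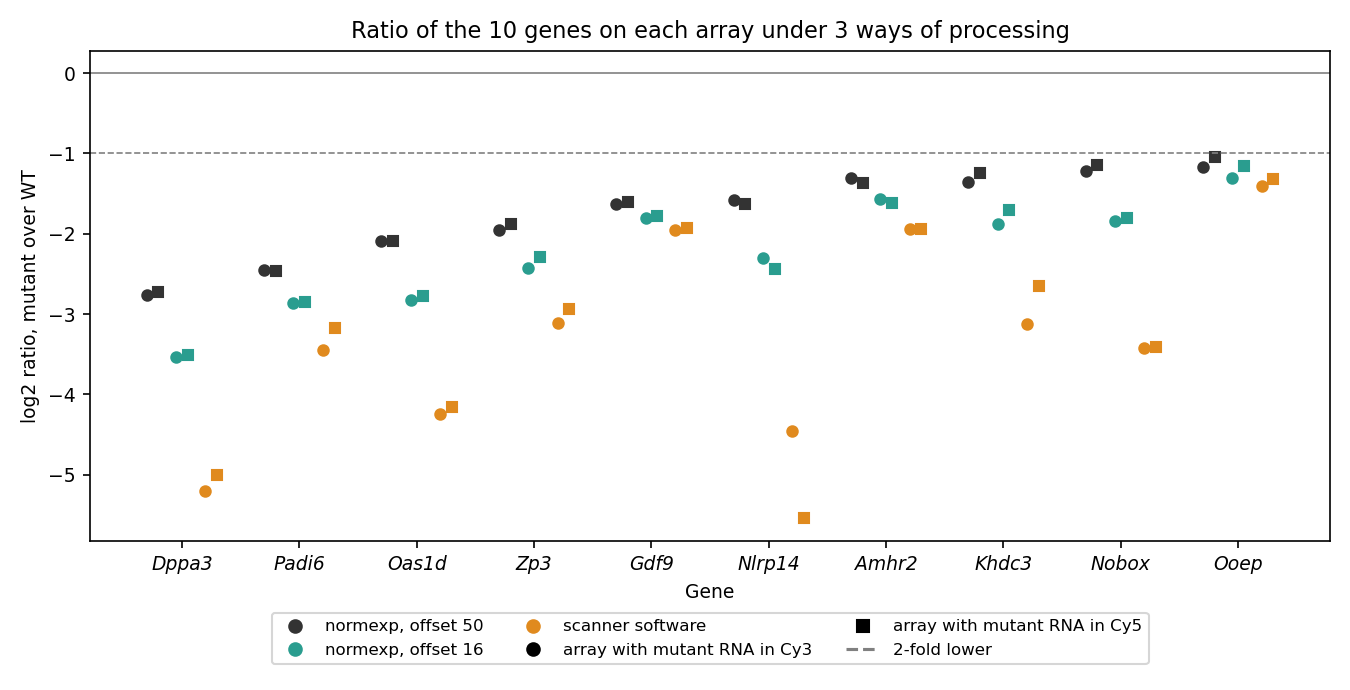
Log2 ratio of mutant over WT of the 10 genes on each array, for normexp with an offset of 50 (black), normexp with an offset of 16 (green) and the scanner software (orange), with circles for the Cy3-mutant array and squares for the other. Every point lies below the dashed line at 2-fold lower, and the spread between the colours is widest in Nlrp14, Dppa3, Nobox and Oas1d, the genes not clear of background in the mutant pool on at least 1 array.

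Other oocyte genes, 42 in lists of the zona pellucida and growth factors, transcription factors, the subcortical maternal complex with the Nlrp family, and maternal transcripts, were read in the same way. Of these, 36 were on the array and 23 were measured. None of the 23 was 2-fold apart on both arrays, against 0.191% of all genes in either direction. Of the 23, 7 counted as measured through the WT pool alone, a filter that favours a lower ratio in the mutant pool, so counts over all 23 are values only: 19 were below 0 on both arrays, with a median log2 ratio of -0.31, where 37.9% of all genes were below 0. Among the 16 clear of background on both arrays in both pools, 12 were below 0 on both arrays and 0 above, with a median of -0.25, against 37.3% below 0 and a median of -0.01 over the 20113 genes of the same kind. With arrays centred on the median in place of loess, 20 of the 23 were below 0 and 2 above on both arrays. Of all 20921 genes, 11372 were then below 0 and 4017 above. The medians were -0.37 for the 23 and -0.11 over all genes. The 23 again include the 7 measured through the WT pool alone, so these are values only.

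H1f8, the linker histone of the oocyte, lay just outside the 2-fold limit, with signals of 125 and 113 in the mutant pool, against 312 and 280 in the WT pool, and a mean log2 ratio of -0.96. Zp2, another zona pellucida protein, had signals of 4.28 and 3.44 in the mutant pool, against 64.5 and 61.4 in the WT pool. The mutant pool was not clear of background on either array for Zp2, which was at least 1.66-fold lower. No probe of Zp1 was found on the array, and Bmp15, a partner of Gdf9, was not clear of background in either pool.

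Figla, the E-box factor of zona genes, was at least 1.46-fold lower in the mutant pool, with signals of 3.85 and 3.19 there against 46.9 and 34.3 in the WT pool. Lhx8, a LIM homeobox factor of the oocyte, was at least 1.79-fold lower, with signals of 3.57 and 2.81 in the mutant pool, against 61.7 and 52.2 in the WT pool. The other transcription factors measured were closer between pools, Sohlh2 at a log2 ratio of -0.14 and Taf4b at 0.08. In the subcortical maternal complex, Tle6 stood at -0.65, with signals of 1164 and 1046 in the mutant pool, against 1794 and 1725 in the WT pool. Nlrp5, also called Mater, was at least 1.36-fold lower and Nlrp4f at least 1.64-fold lower, both not clear of background in the mutant pool. Nlrp2 stood at -0.27. Of the maternal transcripts, the nucleoplasmin Npm2 stood at -0.59, the translational regulator Cpeb1 at -0.42 and Zar1 at -0.39. Of the zona and growth factor list, the kinase receptor Kit, which other tissues also express, stood at -0.31.

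Among the 16 other oocyte genes clear of background on both arrays in both pools, H1f8 was the only one that became 2-fold lower on both arrays with an offset of 16 or with the scanner ratios. Zp2, Figla, Lhx8 and Nlrp4f also passed 2-fold under both of these settings, and Nlrp5 and Bcl2l10 with the scanner ratios only. These 6 genes were measured through the WT pool alone, so nothing is read from their number. Over all genes, 0.292% were 2-fold lower with an offset of 16 and 0.731% with the scanner ratios.

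Of 12 germ cell genes shared by both sexes, 8 were measured, 3 of them, Mael, Sycp3 and Dazl, through the WT pool alone. Measurement through the WT pool alone favours a lower ratio, so counts over the 8 are values only. Of the 8, 6 were below 0 on both arrays and 1 above, with a median log2 ratio of -0.29. Over all genes, 37.9% were below 0. Stag3, a meiotic cohesin subunit, was the one above, with signals of 92.8 and 88.3 in the mutant pool, against 72.0 and 68.2 in the WT pool, and log2 ratios of 0.20 and 0.24. Tex101, a germ cell surface protein, stood at 0.02. Smc1b, another meiotic cohesin subunit, had signals of 52.2 and 57.7 in the mutant pool, against 188 and 149 in the WT pool, and log2 ratios of -1.08 and -0.84. It therefore passed 2-fold on the Cy3-mutant array and not on the other. The piRNA pathway genes Mael and Tdrd1 were at least 1.66-fold lower and at -0.53. Sycp3, of the synaptonemal complex, was at least 1.13-fold lower, and it was not clear of background in the mutant pool. Ddx4, the germ cell RNA helicase, stood at -0.25 and Dazl, a germ cell RNA-binding protein, at -0.16. Summed over the 12 genes, signals were 366 and 368 in the mutant pool, against 675 and 597 in the WT pool.

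The relatives of Oas1d are innate antiviral enzymes and their paralogs. Of 9 other Oas genes on the array, 7 were measured, none was 2-fold apart, and their median was -0.05. On both arrays 4 were below 0 and 3 above, where 37.9% of all genes were below 0 and 6454 of 20921 above. Oas1e stood at -0.62, Oas1c at -0.29, Oas1f at -0.17 and Oas3 at 0.12. Since Oas1d was chosen for its low ratio, no comparison with it is drawn. Oas genes are close paralogs, so probes may bind more than 1 of their transcripts.

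Granulosa and stromal genes of the ovary were listed, as all the lists were, with earlier results of these data known. Of 16 listed, 15 were measured, none was 2-fold apart, and the median log2 ratio was 0.01. On both arrays 2 were below 0 and 4 above, where 37.9% of all genes were below 0 and 6454 of 20921 above. Fst, encoding follistatin, stood at 0.31, Inhba at 0.18, Wnt4 at 0.11 and Gata4 at -0.19. Of the granulosa markers, Foxl2 had signals of 129 and 55.8 in the mutant pool, against 120 and 45.0 in the WT pool, and Fshr and Inha had mean ratios of 0.01 and -0.04. Summed over the list, signals were 21147 and 19134 in the mutant pool, against 20717 and 18395 in the WT pool. Most of each sum came from Nr5a1, Rspo1 and Wnt4, so the sums say little about the other genes listed. Their mean signals were 9059, 5602 and 3085 in the mutant pool, against 9072, 5248 and 2880 in the WT pool. Several genes of the list, such as Wnt4, are also genes of the kidney.

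A further list held 13 receptors and Smad proteins related to signalling by Gdf9 and anti-Müllerian hormone, with Smad6 and Smad7 among them. Amhr2, a receptor of that hormone that was 2-fold lower, was counted with the members and not in this list. The 13 all passed as measured. No ratio among them reached 2-fold on both arrays. Of these, 8 were below 0 and 2 above on both arrays, where 37.9% of all genes were below 0 and 6454 of 20921 above. The list had a median of -0.11 on the log2 scale. Bmpr1b stood at -0.34, Smad1 at -0.32, Smad2 at -0.27 and Acvr1 at -0.26. Anti-Müllerian hormone itself, Amh, had a ratio of -0.05 with signals of 29.2 (mutant pool) and 30.9 (WT pool), means over both arrays.

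Testis and adrenal cortex genes were read as markers of other steroid-producing tissue. Of 14 Sertoli and Leydig cell genes, 13 were measured, none was 2-fold apart, and the median was -0.10. On both arrays 7 were below 0 and 3 above, where 37.9% of all genes were below 0 and 6454 of 20921 above. The steroid dehydrogenase Hsd3b1 stood at -0.59, Aard at -0.45, Sox9 at -0.24 and Cyp17a1 at 0.19. Dhh stood at 0.03 and Insl3 at -0.10. Dmrt1, a Sertoli and germ cell factor of the testis, was not clear of background in either pool. Of the adrenal cortex genes, 3 were measured, with Akr1b7 at -0.30, Mc2r at -0.02 and Cyp21a1 at 0.02. Cyp11b2 was not clear of background in either pool, and no probe of Cyp11b1 was found on the array.

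Y-linked genes differed between the pools in the opposite direction to the oocyte genes. Eif2s3y had signals of 385 and 355 in the mutant pool, against 111 and 109 in the WT pool, with log2 ratios of 1.31 and 1.27, and was one of the 7 genes 2-fold higher. Ddx3y had signals of 208 and 201 in the mutant pool, against 72.9 and 72.5 in the WT pool, and Kdm5d 55.6 and 48.3 in the mutant pool, against 21.5 and 23.1 in the WT pool. Xist, transcribed from the inactive X chromosome, had signals of 11057 and 10616 in the mutant pool, against 11446 and 10018 in the WT pool, a mean log2 ratio of 0.03. The part of these differences in the oocyte gene result was not tested, and with 1 pool per genotype the genotype and the make-up of the pools cannot be told apart.

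**Figure D4:**
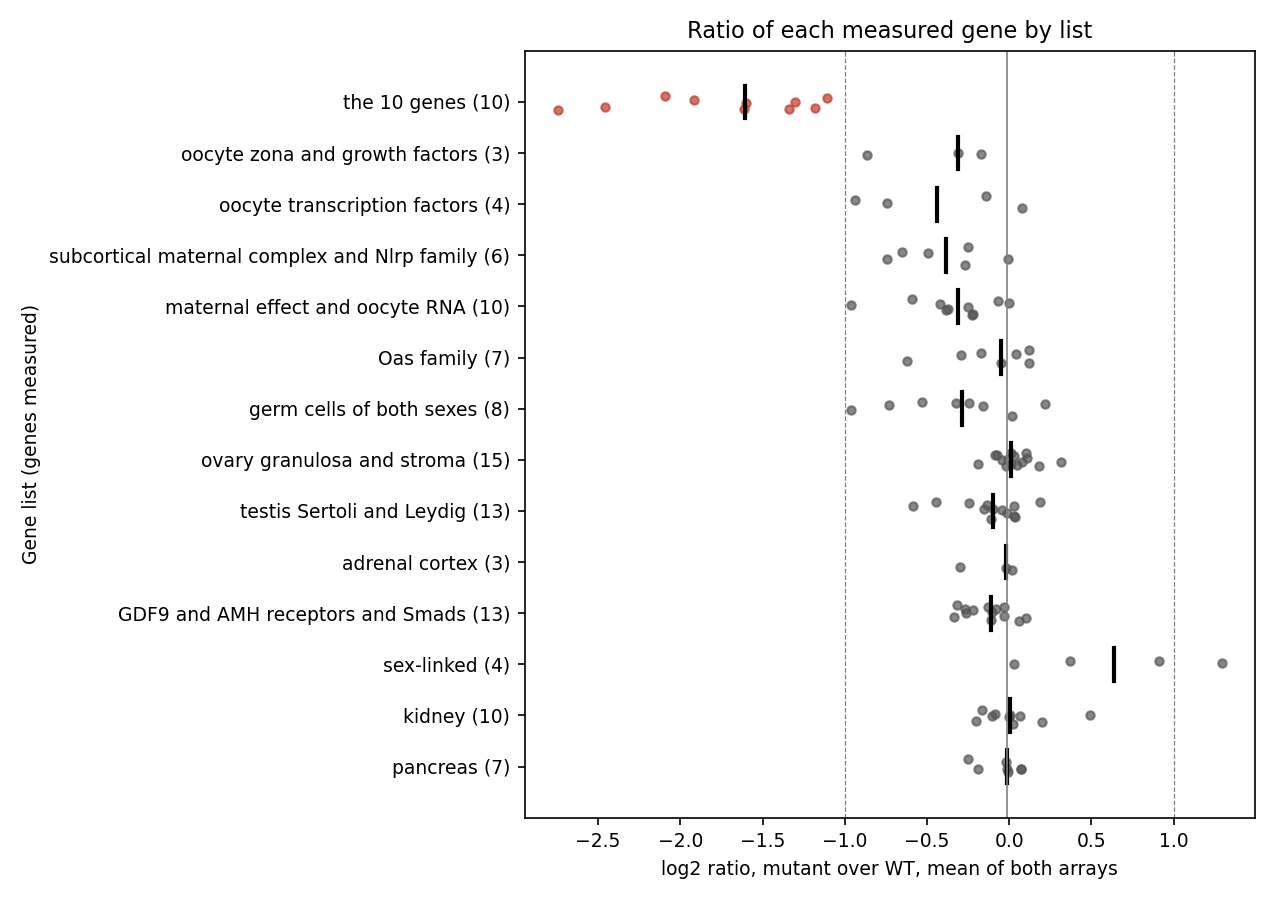
Log2 ratio of mutant over WT (mean of both arrays) of each measured gene by list, with the 10 genes in red, a black bar at each list's median, a grey line at the median of all genes and dashed lines at 2-fold. Oocyte and germ cell lists have medians between -0.44 and -0.29, the ovary granulosa list has a median of 0.01 and the sex-linked list of 0.64. The oocyte and germ cell medians include genes measured through the WT pool alone, a filter that favours a lower ratio in the mutant pool.

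By nearness in ratio, the 5 measured genes closest to the members' median on both arrays were AU024076, B830017H08Rik, TC1445366, Klk1b5 and LOC671950. Nearness was the Euclidean distance between the log2 ratios on the 2 arrays of 1 pool per genotype, and it ran from 0.12 to 0.35. Klk1b5, a kallikrein, had ratios of -1.44 and -1.35 and mean signals of 5529 (mutant pool) and 14822 (WT pool). AU024076 had mean signals of 18.5 (mutant pool) and 209 (WT pool). Of the 33 genes lower in the mutant pool, 23 were not members, and 13 of those carried a RefSeq symbol.

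Upstream sequence was read from RefSeq's table for GRCm38.p6, which held 6 of the 10 members, Padi6, Zp3, Nobox, Khdc3, Ooep and Amhr2. The 250 bases before the annotated start were searched on both strands for letters that Nobox is known to bind in mouse, which are TAATTG, the related element TAATTA and the third element TAGTTG. They were also searched for the E-box CANNTG, which factors such as Figla bind. The E-box is its own reverse complement, and in the windows shown no E-box overlapped a Nobox element. Sequences are shown for the 3 members with one of the Nobox letters and for Padi6, with matches in capitals. They are listed in the gene's own direction.
Zp3, chr5:135979855-135980104, plus strand: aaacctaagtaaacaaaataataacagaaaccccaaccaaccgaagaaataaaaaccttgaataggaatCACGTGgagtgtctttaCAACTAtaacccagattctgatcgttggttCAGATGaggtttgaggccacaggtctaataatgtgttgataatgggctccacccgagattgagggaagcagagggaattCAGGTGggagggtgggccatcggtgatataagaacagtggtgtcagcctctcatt
Ooep, chr9:78378589-78378838, minus strand: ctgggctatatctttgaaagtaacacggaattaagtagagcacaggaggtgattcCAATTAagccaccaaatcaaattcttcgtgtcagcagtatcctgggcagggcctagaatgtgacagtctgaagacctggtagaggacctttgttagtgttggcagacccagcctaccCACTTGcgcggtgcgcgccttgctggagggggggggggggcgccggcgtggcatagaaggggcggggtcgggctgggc
Amhr2, chr15:102445117-102445366, plus strand: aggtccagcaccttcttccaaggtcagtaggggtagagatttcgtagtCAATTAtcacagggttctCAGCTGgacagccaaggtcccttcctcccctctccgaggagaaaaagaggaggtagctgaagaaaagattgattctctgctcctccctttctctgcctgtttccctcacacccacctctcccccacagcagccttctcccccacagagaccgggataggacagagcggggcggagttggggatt
Padi6, chr4:140742644-140742893, minus strand: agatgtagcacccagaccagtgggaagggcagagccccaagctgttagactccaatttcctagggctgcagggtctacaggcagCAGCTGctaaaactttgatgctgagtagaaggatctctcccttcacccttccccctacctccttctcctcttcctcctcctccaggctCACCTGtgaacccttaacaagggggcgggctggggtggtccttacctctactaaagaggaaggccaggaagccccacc

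Zp3 held 3 E-boxes, beginning 181, 134 and 55 bases before the start, and TAGTTG on the opposite strand 164 bases before it. Ooep and Amhr2 each held TAATTG on the opposite strand, beginning 195 and 202 bases before the start, and 1 E-box. Padi6 and Nobox each held 2 E-boxes, and Khdc3 held 5, of which a pair overlapped. One or more E-boxes were found in 6 of the 6 members matched, against 66.22% of 32851 such windows in the table. One of the Nobox letters was found in 3 of the 6, against 16.05% of the windows. A match describes letters in this window and not a bound site.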

How the data were processed

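Glis3 mutant and WT PND3 pools were measured on 2 Agilent arrays, grouped by the labels' genotype. RNA (500 ng per labelling) was amplified and labelled with Cy3 or Cy5, per the labels' protocols. The scanner intensities deposited by the authors are mean spot and median local background values, with processed signals that are background-subtracted and dye-normalized, per the file headers. The scanner's log10 ratios are of Cy5 over Cy3, per the file headers. The deposited value table holds log2 ratios of mutant over WT, found by setting it against the scanner ratios (r = 0.9996 and 0.9997, column medians of 0). How the authors centred it was not stated. Spots were read with Agilent Feature Extraction, version 8.1 per the submitters' processing notes and 9.1.3.1 per the file headers. Other columns are flags, per the file headers.

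Ratios were computed in R 4.3.3 with limma 3.58.1 (normexp, offset 50, loess within arrays, control spots at weight 0) and turned to mutant over WT. Of 43379 spots that were not controls, 18 and 26 outlier spots were left out, and 0 spots were saturated. The scanner marked 72.8% to 76.6% of spots as well above background, by channel. Each gene was read from its brightest probe that was so marked on both arrays for 1 pool or the other. Channel levels for bounds were taken after loess and Aquantile normalization. A bound sets the WT level against the higher of the probe's own mutant level and the lowest level seen in any probe so marked. Probes took the RefSeq symbol (GRCm38.p6) of their accession, 22951 of 41174, and otherwise the file's name. The arrays' number limits the precision. The ratio code was tested by scaling the real signals of bright probes by known ratios. It was not tested on probes as dim as those of the members in the mutant pool. The members and gene lists were chosen with earlier results of these data known. Named genes were mainly the members, up to 4 genes of each list with the largest ratios, and the 5 nearest genes. The markers of germ, gonad and adrenal cell types were also named, with examples from the kidney and pancreas lists. Alternatives changed the background correction, normalization, filter, probe rule and arrays used. The E15.5 fit was not run, because no table naming its probe sets was used here.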

Additional observations from a re-analysis of the deposited data

How the results depend on the processing

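All 10 members were 2-fold lower in the mutant pool under each of 9 alternatives, and each of the 90 member ratios so computed was below 0. The members were chosen for this ratio, and the alternatives are not independent of each other. The deposited value table in effect repeats the scanner ratios. Removing the filter left every member ratio unchanged, and the mean of probes changed Zp3 only. Over all genes, 0.292% were 2-fold lower with an offset of 16 and 0.731% with the scanner ratios. The count of genes 2-fold apart was 40 and became 175 with the scanner software's processed ratios, 175 with the authors' deposited value table and 70 with an offset of 16, and all 40 genes were among them in each of these. Without correction of background it was 40, with median centring 52, without the filter on dim probes 40, with the mean of a gene's probes 37, and on 1 array alone 48 to 59. Of genes in the other lists, 1 was 2-fold apart, Eif2s3y, against 13 with the scanner ratios. The scanner ratios use another background step and dye normalization and no offset. The cause was not tested. Median centring moved the median of all genes to -0.11, against -0.01. No paired analysis was possible because each PND3 genotype is 1 pool and the E15.5 probe sets carry no gene names here. For that reason the E15.5 alternatives were not run. Signals near background in the mutant pool limit the ratios of Dppa3, Oas1d, Nlrp14 and Nobox.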
